A study of Homo sapiens with 7 samples.

Results

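The metallothioneins are small cysteine-rich proteins that hold zinc and copper in clusters of thiol groups. 8 genes of the family (MT1A, MT1E, MT1F, MT1G, MT1H, MT1M, MT1X and MT2A) were chosen by symbol, out of 33117 genes listed in the expression files. Of these 8, 5 were listed, each under 1 identifier: MT2A (ENSG00000125148.6), MT1X (ENSG00000187193.8), MT1F (ENSG00000198417.5), MT1A (ENSG00000205362.6) and MT1G (ENSG00000125144.9). MT1E, MT1H and MT1M were not analysed here. The levels came from 7 RNA sequencing libraries of 769-P, a human clear cell renal carcinoma line that the labels describe as kidney cancer cells. 3 libraries were of cells labelled PA, 2 of cells labelled Lat-M1 and 2 of cells labelled Lat-M2, all grown in the same serum-containing RPMI medium with antibiotics and glutamine, with no further treatment named. Lat-M stands for latent metastatic cells, and the study's design counts its 4 libraries as 1 group. The labels do not spell out PA, nor say whether Lat-M1 and Lat-M2 are clones, separate derivations or passages. They also do not say whether libraries of 1 group came from separate cultures. The p-values therefore weigh a difference between groups only against the spread of libraries within groups, which may be technical variation. Levels are read as TPM, the share of a library's transcripts that a gene makes up, corrected for transcript length. If that reading holds, levels of different genes can be compared on this scale.

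As background, metallothionein transcription is driven by zinc and cadmium through the factor MTF1, which binds metal response elements in the promoters, and also by glucocorticoids and oxidative stress. The proteins buffer free zinc, pass it to other proteins, bind copper and cadmium and react with oxidants. MT2A is the family member made in most tissues, and the MT1 genes beside it are expressed more unevenly between tissues. Cellular zinc is set by importers of the SLC39 (ZIP) family and exporters of the SLC30 (ZnT) family, and SLC30A1 is itself a target of MTF1. In the kidney, metallothioneins are best known from the proximal tubule, where they bind cadmium.

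The coding sequences of the 3 members that were expressed are shown here because they differ little from each other, which bears on how reads could be shared among them. They were taken from the transcripts of GENCODE v29, and capitals mark the codons for cysteine, the residue that binds the metal.
MT2A: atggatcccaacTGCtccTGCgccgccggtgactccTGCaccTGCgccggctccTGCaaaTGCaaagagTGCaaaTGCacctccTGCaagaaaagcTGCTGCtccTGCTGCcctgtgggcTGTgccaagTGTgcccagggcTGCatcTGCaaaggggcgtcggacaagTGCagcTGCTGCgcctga
MT1X: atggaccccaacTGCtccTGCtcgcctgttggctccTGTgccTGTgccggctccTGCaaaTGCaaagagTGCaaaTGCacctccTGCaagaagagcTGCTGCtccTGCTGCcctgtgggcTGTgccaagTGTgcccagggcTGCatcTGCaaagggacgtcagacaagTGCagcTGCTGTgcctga
MT1F: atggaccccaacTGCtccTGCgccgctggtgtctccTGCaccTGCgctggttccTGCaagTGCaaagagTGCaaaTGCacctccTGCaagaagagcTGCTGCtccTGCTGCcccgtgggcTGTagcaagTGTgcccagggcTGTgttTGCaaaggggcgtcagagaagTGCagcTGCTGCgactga
Each has 186 bases, and 20 of its 61 codons (32.8%) encode cysteine. All 20 cysteine codons stand at the same places in the 3 genes. MT2A and MT1X were identical at 172 of 186 bases (92.5%), MT2A and MT1F at 170 (91.4%), and MT1X and MT1F at 165 (88.7%). Over the whole transcript, 4.88% of the 50-base stretches of MT2A and 3.59% of those of MT1F also occurred in transcripts of other genes. For MT1X the share was 45.1%. Stretches shared with AC026461.1 made 29.2% of all, those shared with MT1G 11.7% and those shared with the pseudogene MT1XP1 9.48%. Those shared with MT2A made 3.49%. The level of MT1X is therefore less certain than those of MT2A and MT1F, since the way the submitters assigned shared reads is not given in the sources used here.

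The promoters of MT2A and MT1X are shown because metal response elements are the textbook route to both genes. They are the 250 bases before the transcription start in RefSeq (GRCh38.p14, plus strand, chr16:56608334-56608583 for MT2A and chr16:56682220-56682469 for MT1X), and 3 of the 8 genes (MT1H, MT1X and MT2A) had an entry in the promoter table. Capitals mark the core of the metal response element, searched as TGCACNC and TGCGCNC on both strands.
MT2A promoter: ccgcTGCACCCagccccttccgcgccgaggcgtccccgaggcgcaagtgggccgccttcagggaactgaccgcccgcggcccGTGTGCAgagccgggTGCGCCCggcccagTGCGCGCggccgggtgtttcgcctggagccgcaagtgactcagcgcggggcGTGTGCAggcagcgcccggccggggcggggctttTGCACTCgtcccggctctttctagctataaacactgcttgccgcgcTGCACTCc
MT1X promoter: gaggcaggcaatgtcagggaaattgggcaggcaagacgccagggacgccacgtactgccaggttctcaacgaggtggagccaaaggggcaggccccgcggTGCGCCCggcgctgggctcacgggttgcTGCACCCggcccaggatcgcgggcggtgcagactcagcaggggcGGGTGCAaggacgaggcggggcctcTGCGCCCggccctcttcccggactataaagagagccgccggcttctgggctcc
The MT2A window held 7 such cores and the MT1X window 4. Among 35116 promoter windows of the same length, 24.8% held at least 1 core, 1.58% at least 3 and 0.12% at least 5. The core of the antioxidant response element (TGACNNNGC, both strands) occurred once in each of the 2 windows and in 10.9% of all windows. A match describes these letters only and is no measure of binding. Both genes lie in the metallothionein cluster of chromosome 16, where RefSeq places, in order, MT4, MT3, MT2A, MT1E, MT1M, MT1A, MT1B, MT1F, MT1G, MT1H and MT1X, with pseudogenes between them.

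MT2A carried nearly all of the transcripts of the 5 listed members, a sum that MT1E, MT1H and MT1M do not enter. It gave 94.4% to 96.4% of the summed metallothionein TPM in each library, and by mean level it ranked 343 among all listed genes for PA, 794 for Lat-M1 and 496 for Lat-M2. The level of MT2A was 242, 305 and 317 TPM in the PA libraries, 161 and 178 TPM in the Lat-M1 libraries and 233 and 228 TPM in the Lat-M2 libraries. The 3 groups did not overlap: every PA library was highest, both Lat-M1 libraries were lowest and the Lat-M2 libraries lay between, with PA 1 close above them. How many of all tested genes separate in this order was not counted, here or for the genes below. Group means were 288 ± 40.4 TPM (SD, n = 3) in PA, 169 ± 11.8 TPM (SD, n = 2) in Lat-M1 and 231 ± 3.33 TPM (SD, n = 2) in Lat-M2, so that the mean of PA was 1.70 times that of Lat-M1 and 1.25 times that of Lat-M2.

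MT1X, the second most abundant of the listed members, lay far below MT2A. Its level was 10.7, 9.23 and 11.9 TPM in PA, 5.52 and 4.92 TPM in Lat-M1 and 7.05 and 6.19 TPM in Lat-M2. The order of the groups was the same as for MT2A, again without overlap. The means were 10.6 ± 1.33, 5.22 ± 0.429 and 6.62 ± 0.606 TPM (SD, n = 3, 2 and 2), and the mean of PA was 2.03 times that of Lat-M1 and 1.60 times that of Lat-M2.

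MT1F, a further isoform of the cluster, followed another order. Its level was 3.54, 3.04 and 4.19 TPM in PA, 3.29 and 3.53 TPM in Lat-M1 and 1.77 and 2.31 TPM in Lat-M2. The Lat-M1 values fell inside the range of PA, and both Lat-M2 libraries lay below every other library. The means were 3.59 ± 0.576, 3.41 ± 0.167 and 2.04 ± 0.384 TPM (SD, n = 3, 2 and 2). The share of MT1F in the summed metallothionein TPM was 1.2% ± 0.216 for PA, 1.92% ± 0.0302 for Lat-M1 and 0.855% ± 0.173 for Lat-M2 (SD, n = 3, 2 and 2).

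The remaining listed members were at or near 0. MT1A, a metal-inducible isoform, was at 0.26 TPM in PA 1 and listed at 0 in the other 6 libraries. MT1G was at 0.136 TPM in Lat-M2 2 and listed at 0 in the other 6. Both were below the mean of 1 TPM required for testing, a filter on the mean of all 7 libraries that 3 of the 5 listed members passed. The plot of levels by library shows the 3 tested members.

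**Figure D1:**
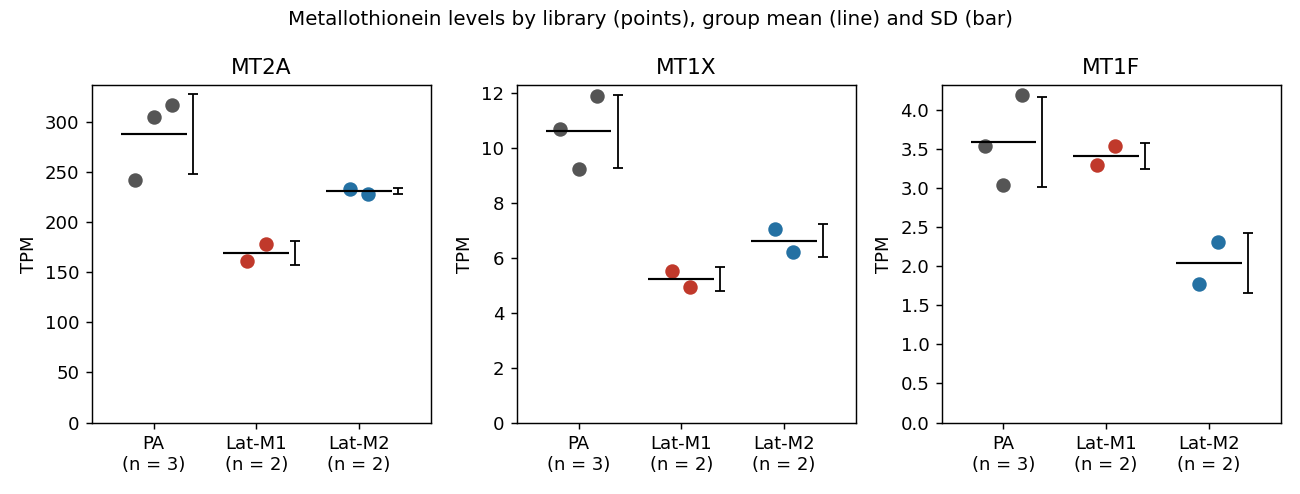
Levels of MT2A, MT1X and MT1F in TPM, from 0, in the 3 PA, 2 Lat-M1 and 2 Lat-M2 libraries (points), with the group mean (line) and SD (bar beside the points). MT2A and MT1X are highest in PA and lowest in Lat-M1 without overlap, whereas MT1F is lowest in Lat-M2, at 1.77 and 2.31 TPM, and overlaps between PA and Lat-M1.

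Summed over the 5 listed members, metallothionein TPM was 256, 317 and 334 for PA, 170 and 186 for Lat-M1 and 242 and 237 for Lat-M2. The sum follows MT2A, and its groups did not overlap. The ratio of MT2A to MT1X was 27.5 ± 5.2 for PA, 32.6 ± 4.94 for Lat-M1 and 34.9 ± 2.7 for Lat-M2 (SD, n = 3, 2 and 2), and the ranges of the groups overlapped. Over the 7 libraries, log2 levels of MT1X and MT2A had a Pearson r of 0.863, against 0.358 for MT1F and MT1X and 0.101 for MT1F and MT2A. These are descriptions over libraries that share their groups. MT1X also shares stretches with the far more abundant MT2A, and the part of shared reads in their likeness was not tested.

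Several properties of the libraries moved with the groups and bear on every value given here. 4 structural RNAs (RN7SL1, RN7SL2, RN7SK and RMRP) took 29.5% to 31.8% of the TPM in PA, 18.6% to 21.9% in Lat-M1 and 22.9% to 27.7% in Lat-M2, and the 16724 tested genes had a median log2 fold change against PA of 0.16 for Lat-M1 and 0.14 for Lat-M2. Differences are therefore also given after each library was scaled by its median ratio over the tested genes, called scaled values. Of 10 markers of renal epithelium and clear cell carcinoma, 9 exceeded 1 TPM in at least 1 library. PAX8 was at 65.6 to 87.9 TPM, while PAX2 was at 0.642 to 0.725 TPM in PA. The carcinoma marker CA9 stayed at 0.156 TPM or less. The list's sum was 2750 to 3090 TPM, of which VIM alone made 1980 to 2430 TPM. Of 8 proximal tubule and hepatocyte markers 6 were listed, and 1 of these (CUBN) exceeded 1 TPM. Of 8 endothelial markers 6 were listed and none exceeded 1 TPM, with CDH5 at 0 in every library. Of 8 fibroblast markers 1, COL1A1, exceeded 1 TPM, and the list's sum was 1.42 to 1.76 TPM in PA, 20.0 to 21.7 TPM in Lat-M1 and 3.12 to 4.10 TPM in Lat-M2. Of 8 leukocyte markers 5 were listed, and 1 of these, the lysosomal gene CD68, exceeded 1 TPM. The sums were 45.7 to 48.4 TPM in PA, 14.4 to 15.6 TPM in Lat-M1 and 39.8 to 42.1 TPM in Lat-M2. The remaining listed ones, PTPRC among them, were at 0.261 TPM or less. The part of COL1A1-bearing or CD68-bearing cells in the metallothionein differences was not tested, and in such bulk RNA fewer cells of a type and less RNA per cell cannot be told apart.

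In Lat-M1, MT2A and MT1X were lower than in PA and MT1F was not called. Differences were tested with limma on log2(TPM + 1), a scale that understates changes of low genes, with Benjamini-Hochberg adjustment over the 16724 tested genes and a threshold of 0.05. MT2A fell by 0.76 ± 0.12 on that log2 scale (SE, limma adjusted p = 0.00205) and MT1X fell by 0.89 ± 0.12 (limma adjusted p = 0.000815). MT1F differed by -0.05 ± 0.15 (limma adjusted p = 0.804). So 2 of the 3 tested members were called lower, where 11.6% of all tested genes were called lower and 33.2% higher. After scaling those shares were 23% lower and 24% higher, and MT2A stood at -0.93 (limma adjusted p = 0.000797) and MT1X at -1.05. Both calls held in each of the 14 alternative analyses run, which left out each library in turn and changed the pseudocount, filter, scaling, variance model and replicate block: MT2A ranged from -0.96 to -0.68 and MT1X from -1.10 to -0.81 there.

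In Lat-M2, MT1X and MT1F were lower than in PA, by smaller margins. MT1X fell by 0.60 ± 0.12 (log2, SE, limma adjusted p = 0.0195) and MT1F fell by 0.59 ± 0.15 (limma adjusted p = 0.0392). MT2A stood at -0.31 ± 0.12 (limma adjusted p = 0.121) and was not called. In this comparison 2.24% of all tested genes were called lower and 12.7% higher, and after scaling 8.41% and 7.47%. The call of MT2A turned on the scaling and on 1 library: it was called at -0.46 after scaling (limma adjusted p = 0.038), at -0.41 with the 4 structural RNAs left out (limma adjusted p = 0.0497) and at -0.43 without PA 1, the lowest PA library (limma adjusted p = 0.0241). The call of MT1X was lost without Lat-M2 1 (limma adjusted p = 0.0779) and without Lat-M2 2 (limma adjusted p = 0.0632). That of MT1F was lost without any 1 of the other 6 libraries (limma adjusted p between 0.0504 and 0.206) and kept without Lat-M2 2 (limma adjusted p = 0.0446).

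The Lat-M groups also differed from each other, in opposite directions for MT2A and MT1F. MT2A was higher in Lat-M2 than in Lat-M1 by 0.45 ± 0.13 (log2, SE, limma adjusted p = 0.0338). MT1F was lower in Lat-M2 by 0.54 ± 0.16 (limma adjusted p = 0.0359), a call that was lost with the structural RNAs left out (-0.50, limma adjusted p = 0.0566). MT1X stood at 0.29 ± 0.13 (limma adjusted p = 0.117) and was called only with the structural RNAs left out, at 0.39 (limma adjusted p = 0.0458). Of all tested genes, 16% were called higher and 20.1% lower in this comparison, and 21.6% and 22.6% after scaling. Without any 1 of the 4 Lat-M libraries the call of MT2A was lost (limma adjusted p between 0.0724 and 0.156), as was that of MT1F except without Lat-M2 2 (limma adjusted p between 0.102 and 0.152). These 3 comparisons share libraries, so their values are given side by side and not as support for each other.

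**Figure D2:**
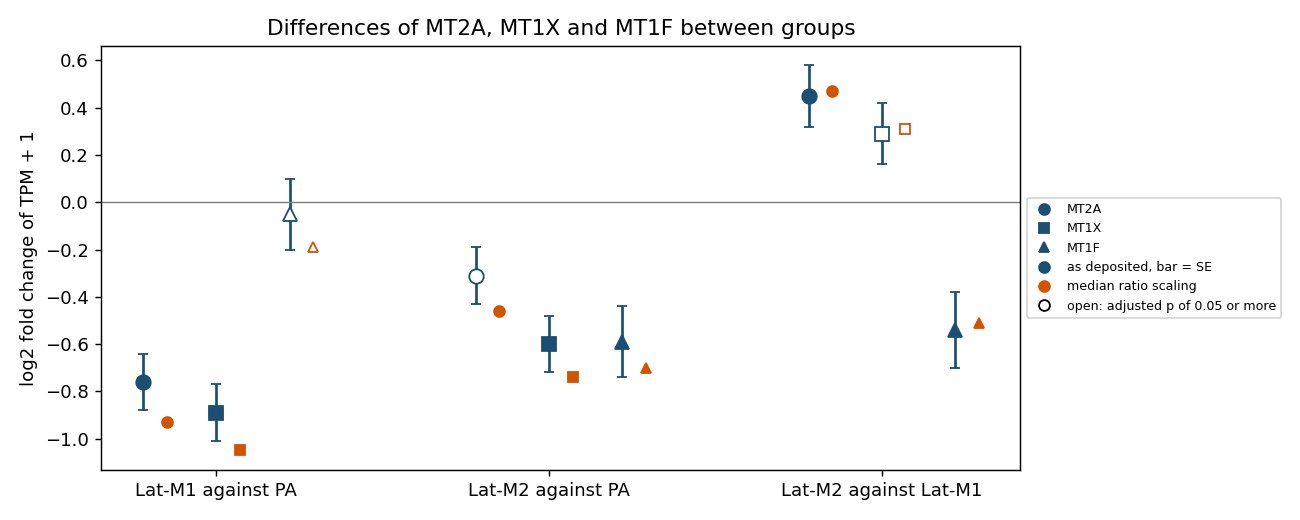
Differences of MT2A (circles), MT1X (squares) and MT1F (triangles) as log2 fold changes of TPM + 1 in 3 comparisons, from deposited TPM (blue, bar = SE) and after median ratio scaling (orange), filled where the limma adjusted p was under 0.05. In Lat-M1 against PA, MT2A, MT1X and MT1F lie at -0.76, -0.89 and -0.05 on deposited TPM and at -0.93, -1.05 and -0.19 after scaling. In Lat-M2 against PA the MT2A point is open on deposited TPM and filled after scaling.

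When the 4 Lat-M libraries formed 1 group against PA, MT1X was the 1 member called. It fell by 0.75 ± 0.14 (log2, SE, limma adjusted p = 0.0441), where 0.389% of all tested genes were called lower and 2.51% higher (0.568% and 0.682% after scaling). MT2A stood at -0.53 ± 0.16 (limma adjusted p = 0.113) and MT1F at -0.32 ± 0.21 (limma adjusted p = 0.351). The call of MT1X was lost without any 1 of the libraries except Lat-M2 2 (limma adjusted p between 0.0621 and 0.199), and without Lat-M2 2 the limma adjusted p was 0.0355. It was also lost when the libraries of 1 Lat-M number were treated as sharing a source (limma's duplicateCorrelation, consensus correlation 0.598, limma adjusted p = 0.0983) and with the structural RNAs left out (limma adjusted p = 0.0516). The fit of 2 groups counts the 4 Lat-M libraries as independent.

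Among 13 other metallothionein genes and pseudogenes, 5 were listed and none reached an appreciable level. The pseudogenes MT2P1, MT1XP1 and MT1P1 lay between 0 and 2.73 TPM, and MT3, the brain isoform, and MT1DP at 0.493 TPM or less. MT2P1 and MT1P1 were tested, and neither was called by limma in any of the 4 comparisons. At an unadjusted p under 0.05 neither passed against PA, and 1 of them was higher in Lat-M2 than in Lat-M1.

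The zinc genes around the metallothioneins were read from lists of sensors and exporters and of importers. MTF1, the metal-sensing transcription factor, averaged 8.03 ± 0.181 TPM in PA, 9.61 ± 0.361 TPM in Lat-M1 and 9.37 ± 1.31 TPM in Lat-M2 (SD, n = 3, 2 and 2). Its log2 differences from PA, 0.23 ± 0.09 for Lat-M1 (limma adjusted p = 0.0757) and 0.19 ± 0.09 for Lat-M2 (limma adjusted p = 0.187), were not called, and scaling left 0.07 and 0.06. The Lat-M1 difference was called without Lat-M2 1 or Lat-M2 2 (limma adjusted p = 0.0313 and 0.0304) and the Lat-M2 difference without Lat-M2 2 (limma adjusted p = 0.0471). SLC30A1, the plasma membrane zinc exporter that MTF1 also drives, was at 90.7, 83.6 and 93.8 TPM in PA, 84.6 and 89.2 TPM in Lat-M1 and 89.6 and 81.0 TPM in Lat-M2. Its groups overlapped and neither difference was called on deposited TPM (-0.04 for Lat-M1 and -0.07 for Lat-M2, limma adjusted p = 0.702 and 0.557). After scaling both were called lower, at -0.21 (limma adjusted p = 0.00773) and -0.22 (limma adjusted p = 0.0232), so whether SLC30A1 moved depends on the scaling.

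TMEM163, a zinc efflux protein, was the exporter with the largest difference. It was at 8.43 ± 0.766 TPM in PA, 2.47 ± 0.011 TPM in Lat-M1 and 8.40 ± 0.598 TPM in Lat-M2 (SD, n = 3, 2 and 2), and fell by 1.44 ± 0.10 in Lat-M1 (log2, SE, limma adjusted p = 3.59e-05). Of the 8 tested sensors and exporters, 2 rose in Lat-M1 (SLC30A5 and SLC30A6, zinc transporters of intracellular membranes, at 0.25 and 0.24, both lost on scaling and without PA 2 or either Lat-M1 library, SLC30A5 also without PA 1) and 1 fell. Of all tested genes 33.2% rose and 11.6% fell, so the list's counts were near the background, and its median was 0.06 against 0.16 over all tested genes. After scaling none rose and 4 fell, where 24% of all tested genes were called higher and 23% lower. The count of 3 became 1 without PA 2 or either Lat-M1 library and 5 without either Lat-M2 library. In Lat-M2 none of the 8 was called by limma, and 1 was higher at an unadjusted p under 0.05. After scaling 2 were called lower there, beside 8.41% of all tested genes. On deposited TPM without Lat-M2 2, 2 were called.

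Among the importers, the gene with the largest difference in both comparisons was SLC39A8 (ZIP8), which carries zinc, manganese and cadmium into cells. Its level was 149, 147 and 151 TPM in PA, 26.2 and 24.6 TPM in Lat-M1 and 67.6 and 61.1 TPM in Lat-M2. The 3 groups were far apart and in the order of MT2A and MT1X. SLC39A8 fell by 2.51 ± 0.06 in Lat-M1 (log2, SE, limma adjusted p = 3.12e-07) and fell by 1.2 ± 0.06 in Lat-M2 (limma adjusted p = 9.26e-05), and both calls held in all 14 alternative analyses. SLC39A14 (ZIP14), a carrier of zinc, iron and manganese, went the other way in Lat-M1, where it was at 224 and 232 TPM, 2.28 times the mean of PA, whose lowest library was at 99.7 TPM. It rose by 1.18 ± 0.06 (log2, SE, limma adjusted p = 9.15e-06). In Lat-M2 it was at 99.6 and 89.7 TPM and stood at -0.08 (limma adjusted p = 0.383), a value that scaling moved to -0.23 (limma adjusted p = 0.00816).

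Of the 11 tested importers, 5 rose and 4 fell in Lat-M1, where 33.2% of all tested genes were called higher and 11.6% lower (24% and 23% after scaling). SLC39A10, a plasma membrane importer, rose by 0.52 ± 0.07 (log2, SE, limma adjusted p = 0.000798), and SLC39A11 fell by 0.56 ± 0.09 (limma adjusted p = 0.00172). The list's median was -0.13, and after scaling 4 rose and 5 fell. In Lat-M2 SLC39A8 was the 1 importer called, and 3 were called lower after scaling, beside 2.24% and 8.41% of all tested genes.

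**Figure D3:**
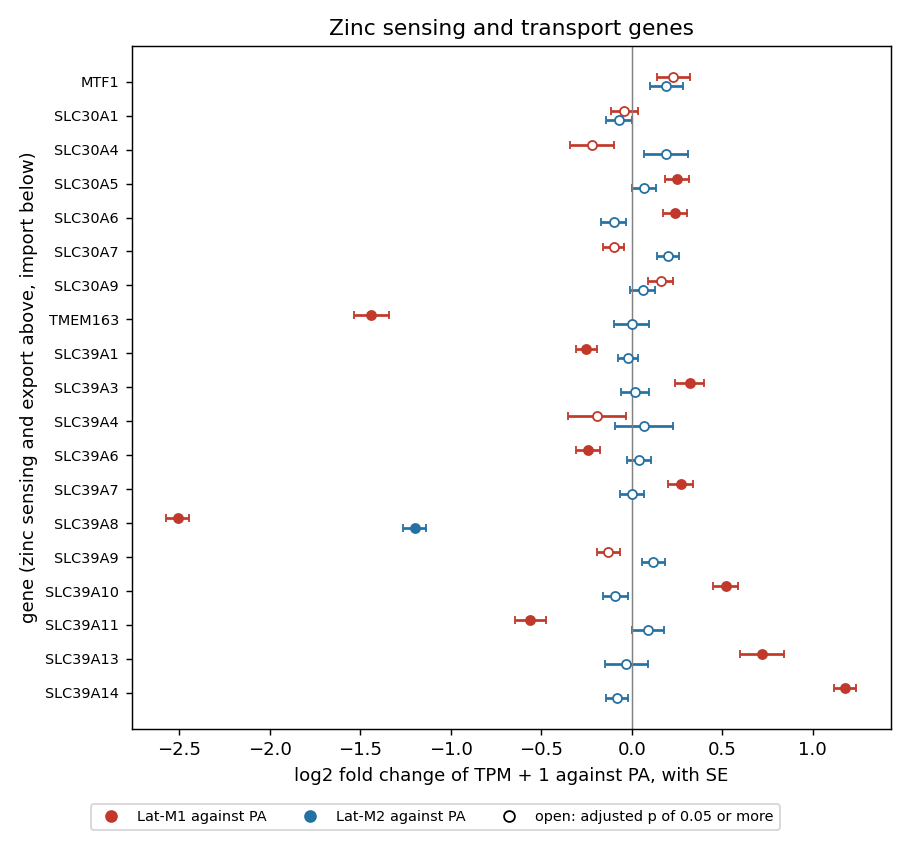
Log2 fold changes of TPM + 1 with SE for the 8 tested zinc sensors and exporters (top) and 11 importers (bottom), in Lat-M1 (red) and Lat-M2 (blue) against PA on deposited TPM, filled where the limma adjusted p was under 0.05. SLC39A8 lies at -2.51 and -1.2, SLC39A14 at 1.18 and -0.08, and MTF1 and SLC30A1 have open points in both comparisons.

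HMOX1, the haem-degrading enzyme induced by oxidants and heavy metals, followed the order of MT2A. It was at 34.7, 39.2 and 34.2 TPM in PA, 9.75 and 11.4 TPM in Lat-M1 and 26.9 and 23.8 TPM in Lat-M2, without overlap. It fell by 1.68 ± 0.10 in Lat-M1 (log2, SE, limma adjusted p = 1.66e-05) and fell by 0.49 ± 0.10 in Lat-M2 (limma adjusted p = 0.0204), the second of which was lost without PA 2, Lat-M2 1 or Lat-M2 2 (limma adjusted p between 0.0518 and 0.0662). Over the 7 libraries, log2 levels of SLC39A8 and HMOX1 each had r = 0.938 with the summed metallothioneins. How many of all tested genes reach such an r was not counted. For SLC39A14 r was -0.815, for MTF1 -0.703 and for SLC30A1 0.264, all as descriptions over libraries that share their groups.

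**Figure D4:**
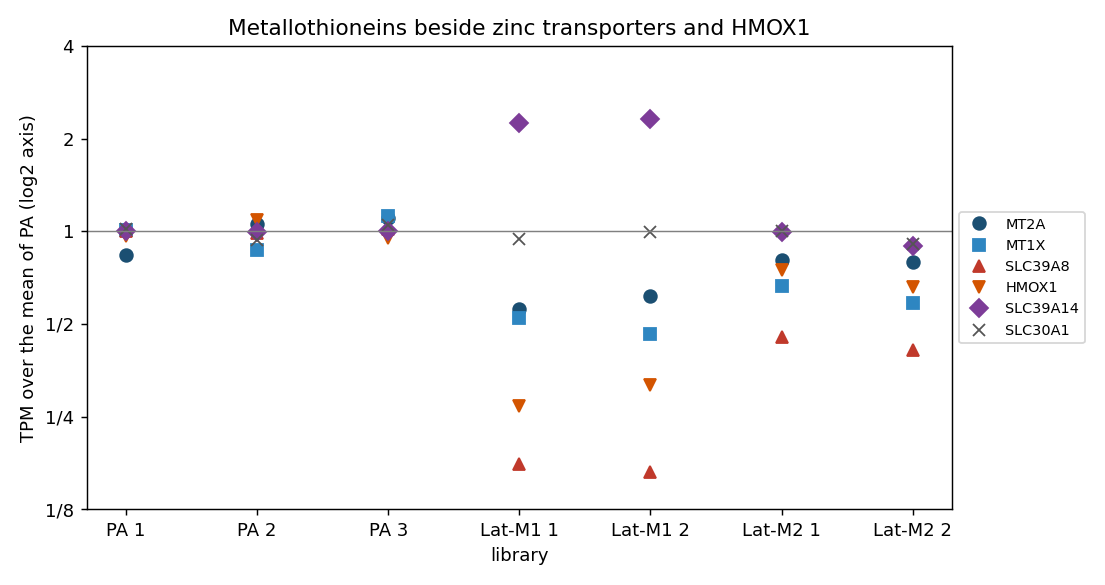
TPM of each library divided by the mean of PA, on a log2 axis, for MT2A, MT1X, SLC39A8, HMOX1, SLC39A14 and SLC30A1. MT2A, MT1X, SLC39A8 and HMOX1 are lowest in the Lat-M1 libraries and intermediate in Lat-M2, SLC39A14 is high in Lat-M1 alone, and SLC30A1 stays near 1 on deposited TPM.

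Among 12 genes of the oxidative and heat stress list, of which HMOX1 is also an iron gene, 3 rose and 3 fell in Lat-M1, where 33.2% of all tested genes were called higher and 11.6% lower. NQO1, a quinone reductase driven through antioxidant response elements, rose by 0.59 ± 0.07 (log2, SE, limma adjusted p = 0.000608) and the heat shock protein gene HSPA1A rose by 0.42 ± 0.07 (limma adjusted p = 0.0019). HMOX1 fell and NQO1 rose there, and the part of oxidants in either change was not tested. The list's median was 0.14, against 0.16 over all tested genes. The count of 6 was 3 without PA 1, PA 3 or either Lat-M1 library and 10 without either Lat-M2 library. In Lat-M2 1 gene rose (HSPA1B, by 0.31 ± 0.07, limma adjusted p = 0.0233, lost without Lat-M2 1 or any 1 PA library) and HMOX1 fell, beside 12.7% and 2.24% of all tested genes. That count of 2 was 0 without PA 2 or Lat-M2 1, where at an unadjusted p under 0.05 limma gave 3 and 2, was 1 without PA 1 or PA 3, and was 6 without Lat-M2 2. HSPA1A and HSPA1B are near-identical copies, so their separate levels are uncertain.

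Of 12 copper genes, 3 rose and 1 fell in Lat-M1, no larger shares than the 33.2% and 11.6% of all tested genes. ATOX1, the copper chaperone of the secretory route, rose by 0.88 ± 0.06 (log2, SE, limma adjusted p = 4.72e-05), from 13.0 ± 0.472 to 24.8 ± 1.05 TPM (SD, n = 3 and 2). COX17, the chaperone of cytochrome oxidase, rose by 0.74 ± 0.07 and COMMD1, a factor in copper export, by 0.55 ± 0.07. After scaling 3 rose and 5 fell, where 24% of all tested genes were called higher and 23% lower. In Lat-M2 none rose after scaling and 1 fell, beside 7.47% and 8.41% of all tested genes. On deposited TPM 3 rose there (ATOX1 at 0.26, COX17 at 0.29 and the copper importer SLC31A1 at 0.24), beside 12.7% of all tested genes called higher. That count of 3 was 1 without PA 1 and 0 without PA 2, PA 3, Lat-M2 1 or either Lat-M1 library, where limma still gave 3 at an unadjusted p under 0.05.

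All 9 tested iron genes were called in Lat-M1, 7 higher and 2 lower, against 6 called after scaling (4 higher and 2 lower). Of all tested genes 33.2% were called higher and 11.6% lower there (24% and 23% after scaling). CP, the copper-bearing ferroxidase ceruloplasmin, was at 1.14 ± 0.212 TPM in PA, 34.6 ± 0.767 TPM in Lat-M1 and 2.13 ± 0.0779 TPM in Lat-M2 (SD, n = 3, 2 and 2), a rise of 4.06 ± 0.11 in Lat-M1 (log2, SE, limma adjusted p = 5.31e-07) and of 0.55 ± 0.11 in Lat-M2 (limma adjusted p = 0.021, lost without any 1 of the 4 Lat-M libraries). The iron regulatory protein genes ACO1 and IREB2 rose by 1.08 ± 0.09 and 0.61 ± 0.08 in Lat-M1, and IREB2 rose by 0.40 ± 0.08 in Lat-M2 (limma adjusted p = 0.0216, lost without PA 1, PA 2 or Lat-M2 1). The list's median was 0.45 for Lat-M1, with 0.25 for Lat-M2. The Lat-M1 count of 9 was 5 without Lat-M1 2. In Lat-M2 5 rose and 1 fell, beside 12.7% and 2.24% of all tested genes. This count of 6 was 2 without PA 1, 1 without PA 2, 3 without PA 3 or either Lat-M1 library, and 0 without Lat-M2 1, where limma gave 7 at an unadjusted p under 0.05.

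Glucocorticoids are another textbook inducer of MT2A, and the tested genes from a list of responders to them changed in both directions. Of 12 genes in that list 11 were listed and 6 tested, the other listed ones averaging under 1 TPM. The part of glucocorticoids in the metallothionein differences was not tested. FKBP5, a co-chaperone of the receptor and a standard target, rose from 0.816 ± 0.0753 TPM in PA to 6.51 ± 0.194 TPM in Lat-M1 and 2.37 ± 0.165 TPM in Lat-M2 (SD, n = 3, 2 and 2), by 2.05 ± 0.12 and 0.89 ± 0.12 (log2, SE, limma adjusted p = 1.79e-05 and 0.00655), the second lost without Lat-M2 1 (limma adjusted p = 0.0535). CRISPLD2, another glucocorticoid-induced gene, fell by 2.07 ± 0.09 and by 1.08 ± 0.09 in the same 2 comparisons. The kinase gene SGK1 rose by 0.99 ± 0.06 in Lat-M1 and fell by 0.61 ± 0.06 in Lat-M2, and the phosphatase gene DUSP1 rose by 0.84 ± 0.06 and fell by 0.21 ± 0.06 (limma adjusted p = 0.0492 for the fall, lost without any 1 of the 7 libraries). Of the 6 tested genes 5 rose and 1 fell in Lat-M1 (3 and 1 after scaling), and 2 rose and 3 fell in Lat-M2. For Lat-M1 33.2% of all tested genes were called higher and 11.6% lower (24% and 23% after scaling). For Lat-M2 the shares were 12.7% and 2.24%. The Lat-M2 count of 5 was 3 without PA 2 and 2 without Lat-M2 1.

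Genes on either side of the cluster on chromosome 16 were read from a list of neighbours. HERPUD1, a gene of protein quality control in the endoplasmic reticulum, was at 48.9 ± 1.13 TPM in PA, 59.4 ± 2.71 TPM in Lat-M1 and 57.7 ± 3.91 TPM in Lat-M2 (SD, n = 3, 2 and 2). It rose by 0.27 ± 0.06 in Lat-M1 (log2, SE, limma adjusted p = 0.0107, lost on scaling and without Lat-M1 2). In Lat-M2, 2 of 6 tested neighbours rose, HERPUD1 and OGFOD1, by 0.23 ± 0.06 and 0.25 ± 0.07, beside 12.7% of all tested genes, and none was called after scaling (1 at an unadjusted limma p under 0.05). That count of 2 was 0 without any 1 of the libraries except Lat-M2 2, where limma gave 3 or 4 at an unadjusted p under 0.05.

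By the rule for likeness of pattern, the 5 genes with the highest correlation with the summed metallothioneins were taken from 3947 tested genes outside the lists whose highest and lowest library differed by at least 1 on the log2 scale. These were CTB-178M22.2 (r = 0.9932), AC005329.7 (0.9877), the unconventional myosin gene MYO18A (0.9779), AP001187.1 (0.9695) and MIR4477B (0.9691), each over 7 libraries. MYO18A was at 6.75 ± 0.823 TPM in PA, 2.79 ± 0.0105 TPM in Lat-M1 and 4.83 ± 0.152 TPM in Lat-M2 (SD, n = 3, 2 and 2). The other 4 had group means of at most 2.60 TPM, so 1 of the 5 was expressed well above the test's minimum.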

How the data were processed

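TPM per gene were made and deposited by the authors for 7 libraries. The unit is read from the values, since the listed genes of each library add up to 1e+06. This sum alone does not show that transcript length was corrected for. Per the labels' protocols, total RNA came from an RNeasy kit, and a TruSeq or a NEBNext Ultra kit served for each library; which of them served for which is not given in the sources used here. TopHat2 2.2.4 and hg19 are named in the submitters' processing notes; the quantifier and annotation are not given in the sources used here. TPM keeps no counts, so depth and counting intervals are unknown.

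Here log2(TPM + 1) of 16724 genes, those averaging 1 TPM or more, was fitted with limma 3.58.1 in R 4.3.3 (trend and robust options, Benjamini-Hochberg adjustment at 0.05). PA, Lat-M1 and Lat-M2 entered a fit of 3 groups, and Lat-M against PA a fit of 2 groups. The fit was tested on simulated data. Groups came from the sample titles. Each symbol was read from its highest-mean entry. The fits were repeated with a pseudocount of 0.1, no filter, a minimum mean of 5 TPM, median ratio scaling, the 4 structural RNAs left out, limma without its trend and robust options, a replicate block and leaving out each library, and for Lat-M against PA also the contrast in the fit of 3 groups and limma's duplicateCorrelation.

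The members and gene lists were chosen with earlier results of these data known. Named were all members, MTF1, SLC30A1, up to 4 genes of each list with the smallest p among those called in Lat-M1 or Lat-M2 against PA, and the 5 genes most like the summed members. Of 96 genes in 8 lists, 15 were not analysed here. A result for 1 further list gene is not reported here. Sequences came from GENCODE v29 and RefSeq (GRCh38.p14), a build other than that of the files, so no position in hg19 is given.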

Additional observations from a re-analysis of the deposited data

Results flagged for a closer look

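MT1G was at 0.136 TPM in Lat-M2 2 and listed at 0 in the other 3 Lat-M libraries, so 1 library stood apart from the rest of its group of 4. With the other 3 at 0, any value above 0 would do so.

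The difference from PA was not the same in Lat-M2 as in Lat-M1 for 2 members, tested as Lat-M2 against Lat-M1 with limma. For MT2A the difference from PA was less negative in Lat-M2 by 0.45 on the log2 scale (limma adjusted p = 0.0338), and both Lat-M2 libraries lay above both Lat-M1 libraries. For MT1F the effect in Lat-M2 minus that in Lat-M1 was -0.54 (limma adjusted p = 0.0359; 0.0566 with the structural RNAs left out), and both Lat-M2 libraries lay below both Lat-M1 libraries.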

How the results depend on the processing

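In Lat-M1 against PA, MT2A and MT1X were called in all 14 alternatives. The MT1F difference there, untested at a minimum mean of 5 TPM and not called in the other 13, turned to 0.04 (0.0415) under the replicate block and ranged from -0.14 to 0.04 when 1 library was left out. SLC30A1 in Lat-M2 against PA ranged from -0.14 to 0.0047 when 1 library was left out.

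In Lat-M2 against PA the 2 members called became 0 with no filter (3 at an unadjusted limma p under 0.05), 1 at a minimum mean of 5 TPM, which leaves MT1F untested, 1 under the replicate block, and 0 to 2 when 1 library was left out. In Lat-M2 against Lat-M1 the 2 became 0 with no filter (2 unadjusted), 1 at a minimum of 5 TPM, 1 without trend and robust options, 1 under the replicate block (MT1F lost, limma adjusted p = 0.0537), and stayed 2 with structural RNAs left out, where MT1X was called in place of MT1F. It was 0 to 2 when 1 library was left out. In Lat-M against PA the 1 became 0 with no filter, with structural RNAs left out and with duplicateCorrelation (2 unadjusted in each), 0 under the replicate block (1 unadjusted; MT1X limma adjusted p = 0.372), 2 as a contrast in the fit of 3 groups, and 0 to 1 when 1 library was left out. Leaving out a library leaves some groups with 1, assumed to vary like the others.

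Over all tested genes, the 2494 calls of Lat-M2 against PA were 1532 with no filter, 943 under the replicate block and 506 (without Lat-M2 1) to 3191 without 1 library. The 485 of Lat-M against PA were 150 with no filter, 209 after scaling, 175 without structural RNAs, 88 with duplicateCorrelation, 6106 in the fit of 3 groups, 0 under the replicate block (2060 unadjusted) and 18 to 1869 without 1 library. The 7499 of Lat-M1 against PA were 4721 without Lat-M1 2, and the 6022 of Lat-M2 against Lat-M1 were 3975 and 3838 without Lat-M1 1 and Lat-M1 2. Of 2 other metallothionein genes tested in Lat-M1 against PA, 1 was called lower under the replicate block. Libraries with the same last number did not deviate together (r from -0.082 to 0.0312), so the number is not known to pair them. Depth is unknown, so what it limits was not measured.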
